A study of Mus musculus with 34 samples.

Results

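The genes that build cholesterol and fatty acids were compared between mouse embryonic stem cells (mESCs) kept without LIF and mESCs kept without LIF but with Royalactin, a protein of honeybee royal jelly. A list of 33 gene symbols was matched exactly to the 23366 symbols of the deposited expression table, and all 33 were found. They fall into 16 enzymes of sterol synthesis, 5 genes of the SREBP control system, 11 enzymes of fatty acid synthesis and 1 sterol transport protein. The rule itself reads only the symbols, but the list was proposed with results of these data known.

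The RNA-seq part of the series holds 4 libraries of J1, a single male mESC line, grown on gelatin in serum medium. LIF, the cytokine that keeps mESCs undifferentiated in serum, was left out in both groups, so no culture with LIF enters any comparison here. The 2 serum/-LIF libraries had no further addition, and the 2 serum/-LIF + Royalactin libraries received 0.5 mg/ml purified Royalactin. The labels give passage 40 for all of them, while the paper describes its J1 RNA-seq as passage 10. The labels also speak of triplicate cultures where 2 libraries a group are in the table, and do not say which cultures these came from, so p-values measure the spread between these libraries, which may be technical.

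Cells make both products from acetyl-CoA in the cytosol. The mevalonate route condenses it to isoprenoid units, joins these to squalene and closes the ring to lanosterol, which a series of demethylation, reduction and isomerisation steps turns into cholesterol. Fatty acid synthesis carboxylates acetyl-CoA to malonyl-CoA, extends it to palmitate, and then elongates and desaturates the chain. Both routes are under the SREBP transcription factors, which are held in the endoplasmic reticulum with their escort Scap by the Insig proteins when sterols are plentiful and released to the nucleus when sterols run low. SREBPs bind sterol response elements beside sites for the general factors NF-Y and Sp1.

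RefSeq promoter windows (GRCm38.p6) were matched for 26 of the 33 members, and the 250 bases before each start were searched on both strands for TCACNCC, the core of the classical sterol response element, for CCAAT, the NF-Y box, and for GGGCGG, the Sp1 box. CCAAT was present for 12 of 13 sterol synthesis genes (92.3%) and for 4 of 8 fatty acid genes (50.0%), against 37.5% of all genes with a window and 41.1% of the tested genes. GGGCGG was found for 12 of 13 sterol synthesis genes (92.3%) and for 4 of 8 fatty acid genes (50.0%), against 65.6% of the tested genes. TCACNCC was found for 4 of the 26 members (15.4%), namely Hmgcs1, Acat2, Srebf2 and Insig2, against 15.1% of all genes, so the core in this strict spelling was no more frequent among the members. These matches describe letters in a window and not bound sites, and an element spelled otherwise is missed.

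Stretches around these motifs are shown for genes whose expression is described next: Acat2, Lss and Ebp had the largest positive differences of the sterol arm, Idi1 and Cyp51 the largest negative ones, Srebf2 and Insig1 belong to the control system, and Fasn makes palmitate. Capitals mark TCACNCC or its reverse complement, and CCAAT or its reverse complement ATTGG. Each is read 5′ to 3′ on the strand of its gene and matched mm9 exactly at 1 place on the chromosome of that gene, the only one searched. The places are chr17:13153611-13153697 (minus strand) for Acat2, chr15:81977497-81977583 (plus) for Srebf2, chr10:75994248-75994332 (plus) for Lss, chrX:7770649-7770733 (minus) for Ebp, chr13:8884798-8884851 (plus) for Idi1, chr5:4104698-4104766 (minus) for Cyp51, chr5:28397702-28397780 (plus) for Insig1 and chr11:120685876-120685960 (minus) for Fasn.
Acat2: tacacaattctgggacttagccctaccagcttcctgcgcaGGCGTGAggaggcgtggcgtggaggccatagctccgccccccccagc
Srebf2: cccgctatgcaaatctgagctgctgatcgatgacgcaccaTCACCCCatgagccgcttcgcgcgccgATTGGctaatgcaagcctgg
Lss: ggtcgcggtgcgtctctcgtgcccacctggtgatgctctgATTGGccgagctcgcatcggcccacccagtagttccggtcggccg
Ebp: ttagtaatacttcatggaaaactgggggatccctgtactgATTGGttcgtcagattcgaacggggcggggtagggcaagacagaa
Idi1: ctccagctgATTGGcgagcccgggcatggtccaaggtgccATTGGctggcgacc
Cyp51: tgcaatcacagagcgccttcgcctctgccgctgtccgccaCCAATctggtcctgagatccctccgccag
Insig1: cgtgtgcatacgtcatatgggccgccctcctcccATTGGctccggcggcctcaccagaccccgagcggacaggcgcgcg
Fasn: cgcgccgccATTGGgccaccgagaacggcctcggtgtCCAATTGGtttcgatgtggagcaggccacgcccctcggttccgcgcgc
Lss, Ebp, Idi1, Cyp51, Insig1 and Fasn were picked for their NF-Y box after the values were seen. As 12 of 13 sterol synthesis genes had CCAAT, its presence in these stretches cannot set positive differences apart from negative ones. No CCAAT was found for Acat2, which had a positive difference. The Fasn stretch holds 3 NF-Y boxes, of which 2 overlap in CCAATTGG.

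Values below are DESeq-normalized counts as deposited, that is, reads per gene divided by a scaling factor of the library. Depth on genes ran from 14737796 to 17597818 reads. Of these the ribosomal RNA precursor Rn45s took 46.6% in serum/-LIF replicate 1, 21.6% in replicate 2, and with Royalactin 38.4% in replicate 1 and 9.08% in replicate 2, which left 7878527 to 15999458 reads on other genes. The stem cell identity of the cultures was checked with 8 mESC markers. All 8 were detected in every library, and their summed level was 25147 and 31236 in serum/-LIF against 33775 and 41025 with Royalactin, with Sox2, Zfp42 and Esrrb higher at an adjusted p-value under 0.05 by limma. The other 5 did not pass. Of these, Nanog stood at 859 and 716 in serum/-LIF against 1467 and 1738 with Royalactin (log2 fold change 1.02, unadjusted p = 0.00448, limma). Dppa5a stood at 5380 and 7901 against 8990 and 13523 (log2 fold change 0.76, unadjusted p = 0.0454, limma). Tdgf1, the most abundant of the 5, went the other way, at 10914 and 14553 against 8696 and 9728 (log2 fold change -0.45). Pou5f1 and Utf1 had log2 fold changes of 0.25 and 0.10. Of 12 fibroblast markers, Postn, Pdgfrb and S100a4 were at 0 in all libraries, and the sum of the list was 2298 and 1199 in serum/-LIF against 6307 and 3383 with Royalactin. Without Fn1, which made up most of it, that sum was 290.2 and 244 against 234 and 156. Of the 5 fibroblast markers tested, 2 had a log2 fold change above 0 and 3 below. By an unadjusted p-value under 0.05 and a 2-fold change (limma), 1 passed upwards and 1 downwards, where 7.13% of tested genes passed. The 8 visceral endoderm markers summed to 2550 and 2426 against 2458 and 3182. Apoe made up most of this sum, at 1708 and 1679 against 1966 and 2670, and the members went both ways. Of the 5 tested, 3 had a log2 fold change above 0 and 2 below, none called at the adjusted threshold. Apob stood at 697 and 688 against 389 and 403 (log2 fold change -0.81), while Ttr and Gata4, both at low counts, had -1.29 and 1.55. Stem cell markers thus differed between the groups, 3 of them past the adjusted threshold, while the lipid genes were measured. The part of this in the results below was not tested. In bulk RNA, more cells of a type and more RNA per cell cannot be told apart.

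Among the members, 32 were tested, since they reached a mean normalized count of 10 over the 4 libraries. The exception was Hmgcs1, which encodes the synthase that makes HMG-CoA and is usually abundant where sterols are made. It was listed at 0 in all 4 libraries. A count of 0 can still be drawn where up to 3 reads are expected. Hmgcs1 has no gene model in the GENCODE annotation of mm9. Its promoter stretch, with a sterol element core and an NF-Y box, is shown to say where it lies.
Hmgcs1: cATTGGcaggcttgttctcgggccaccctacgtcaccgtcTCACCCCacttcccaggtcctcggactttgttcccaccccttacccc
This stretch matched mm9 exactly at 2 places, both on sequences not placed on a chromosome, while RefSeq places it on chromosome 13 in the later build. Whether this has a part in the 0 was not tested.

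The 32 measured members spanned a wide range of levels. Per kb of the longest coding transcript, a scale on which genes can be compared, the mean normalized count over the 4 libraries ran from 15.6 for Acss2, which makes acetyl-CoA from acetate, to 1679 for Fdps, the farnesyl diphosphate synthase. The levels of the mevalonate arm peaked in its middle, at Idi1 (876 per kb) and Fdps, with Fdft1, Sqle and Cyp51 between 422 and 521 per kb. Mvk, Tm7sf2 and Hsd17b7 stayed between 36.3 and 57.3 per kb. In the fatty acid arm, Acly, Scd2 and Fasn were the most abundant at 908, 725 and 605 per kb, and Acss2 and Elovl1 the least abundant at 15.6 and 55.4 per kb. Between 33 and 7930 reads lay behind a single value of a tested member.

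**Figure D1:**
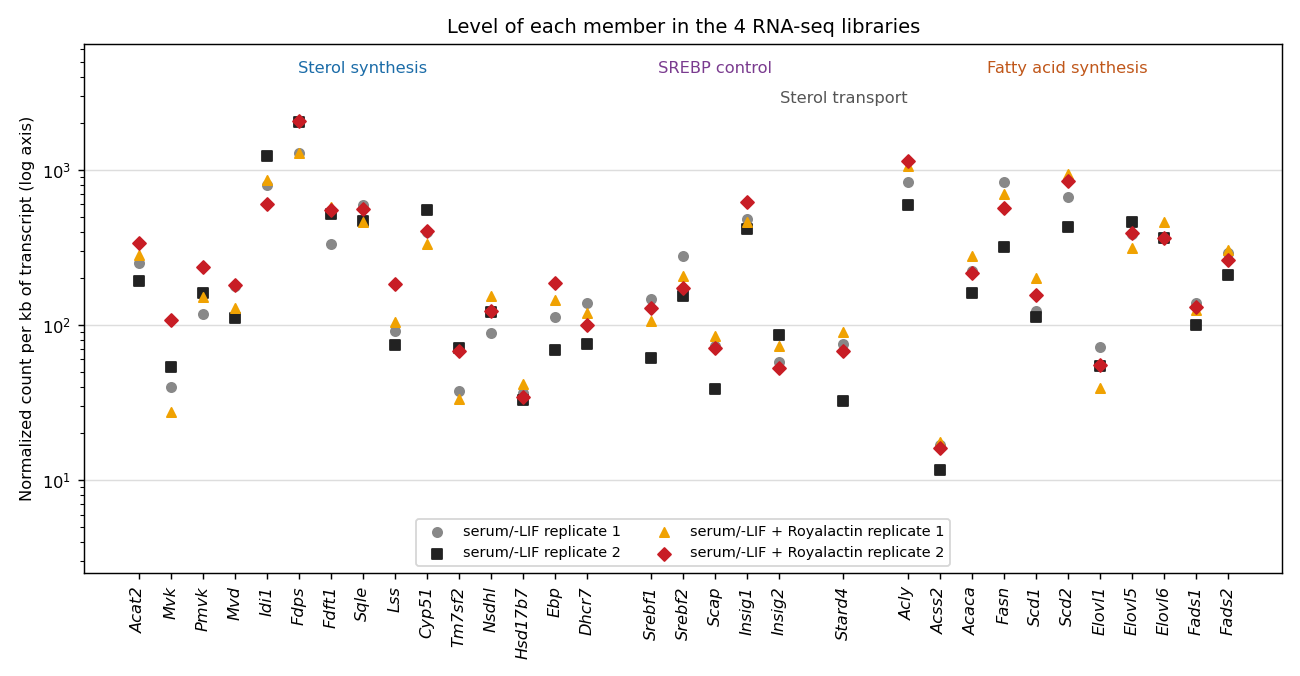
Normalized count per kb of transcript (log axis) of the 32 measured members in each of the 4 libraries, in pathway order within each group. Levels ran from 15.6 per kb for Acss2 to 1679 per kb for Fdps as means of 4 libraries, and for most genes the symbols of the groups were interleaved. The squares of serum/-LIF replicate 2 lay lowest for 19 of the 32 genes.

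For some members near-identical sequence elsewhere in the genome leaves the level uncertain. The reads themselves were not examined, and how the count treated reads with several matches is not given in the sources used here. Of the 75-base tiles cut from the exons, 88.7% for Fdps, 85.3% for Idi1, 74.3% for Acaca, 59.6% for Insig1, 45.2% for Acat2 and 31.3% for Fdft1 also matched elsewhere in mm9 with up to 2 mismatches. For Scd1 and Scd2, which are neighbouring paralogs, the share was 4.99% and 4.17%. Exons of Fdft1 and Scap shared 26.9% and 18.9% of their bases with a gene on the opposite strand, and Tm7sf2 shared 15.3% with a gene on its own strand. The strand setting of the count is not given in the sources used here.

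The comparison asked whether these genes were expressed differently once Royalactin was present, and no single member was called. None passed an adjusted p-value under 0.05 (limma on log2(normalized count + 1), Benjamini-Hochberg over all genes), where 0.493% of the 12993 tested genes did. The lowest adjusted p-value among them was 0.468, for Scd2. The study set limits of 0.05 on the p-value and 2 on the fold, and names no adjustment. With unadjusted limma p-values in place of its DESeq test, again 0 members passed these limits, where 7.13% of tested genes did. Without serum/-LIF replicate 1, Ebp, Scd2 and Stard4 passed these limits, at log2 fold changes of 1.24, 1.05 and 1.27, where 14.8% of tested genes passed them without that library. Without Royalactin replicate 1 Lss did, at 1.15, where 3.29% of tested genes did. At an unadjusted p-value under 0.05 there were 2 members, Scd2 and Acly, the latter only just, where 9.34% of tested genes passed. No member had an estimated change of 2-fold, a size reached by 19.6% of tested genes. Precision limits these statements, since the standard error of the log2 fold change ran from 0.29 to 0.75 over the members.

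The estimates leaned upwards. A log2 fold change above 0 was seen for 24 of the 32 members, against 49.4% of tested genes, and their median was 0.25 against -0.01 over all tested genes. Both Royalactin libraries lay above both serum/-LIF libraries for 8 members (25.0%), where 19.7% of tested genes did. These were Acat2, Fdft1, Lss, Nsdhl, Ebp, Acly, Scd1 and Scd2. For 0 members did both lie below, where 18.9% of tested genes did.

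**Figure D2:**
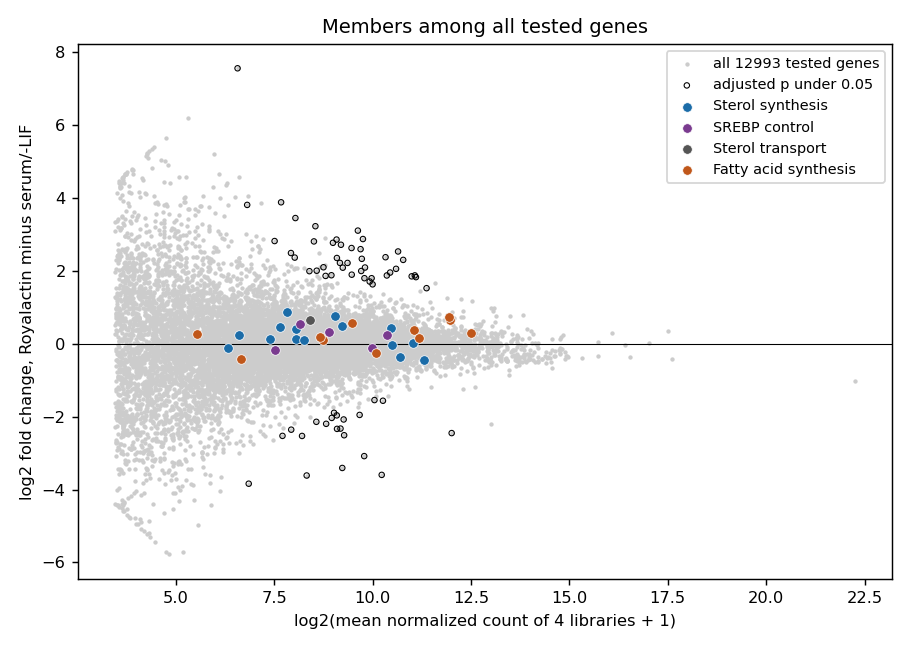
log2 fold change between serum/-LIF + Royalactin and serum/-LIF against the log2 mean normalized count of the 4 libraries, for all 12993 tested genes (grey), the 64 genes with an adjusted p-value under 0.05 (open circles) and the 32 measured members (coloured by group). The members lie within the grey band between -0.45 and 0.88, and none is circled.

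Of the 15 tested sterol synthesis genes, 11 had a log2 fold change above 0 and 4 below, with a median of 0.12 and a range of -0.45 to 0.88. The median was 0.19 without serum/-LIF replicate 1, 0.34 without serum/-LIF replicate 2, 0.36 without Royalactin replicate 1 and 0.13 without Royalactin replicate 2. None passed an unadjusted p-value of 0.05. The largest positive difference was that of Ebp, the sterol isomerase of a late step (chrX:7762455-7770638). It had normalized counts of 198 and 121 in serum/-LIF replicates 1 and 2 and of 252 and 325 with Royalactin. The groups did not overlap, but the serum/-LIF replicates themselves stood 1.63-fold apart. The means were 160 ± 54.3 and 289 ± 51.2 (SD, n = 2), and the limma fold was 1.84 with a 95% interval of 0.955 to 3.56, which includes no change (adjusted p = 0.585).

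Lss, the lanosterol synthase that closes the sterol ring (chr10:75994333-76019883), stood at 427 and 348 in serum/-LIF and at 491 and 854 with Royalactin. Royalactin replicate 2 alone was far above the others, and replicate 1 lay close to the serum/-LIF level. The fold was 1.68 (0.968 to 2.91; adjusted p = 0.577, limma). Acat2, the thiolase of the first step (chr17:13135756-13153613), had counts of 564 and 433 against 633 and 765. Its fold was 1.41 (0.856 to 2.31; adjusted p = 0.706, limma), with the limit that 45.2% of its exon tiles also match elsewhere.

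The largest negative difference was that of Idi1, the isomerase of the isoprenoid units (chr13:8884852-8891641). Its normalized counts were 2279 and 3548 in serum/-LIF and 2479 and 1741 with Royalactin. The groups overlapped, with the serum/-LIF value of replicate 1 between the Royalactin values. The fold was 0.731 (0.451 to 1.18; adjusted p = 0.726, limma), with the limit that 85.3% of the exon tiles of Idi1 also match elsewhere. Cyp51, the lanosterol demethylase (chr5:4081145-4104746), was at 1567 and 2171 against 1318 and 1585, and these ranges overlapped as well. Its fold was 0.784 (0.498 to 1.23; adjusted p = 0.777, limma).

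Tm7sf2, a sterol reductase (chr19:6062821-6068373), had 56.2 and 107 against 50.3 and 103, that is, nearly the same pair of values in both groups. The difference between its replicates, 1.90-fold and 2.04-fold, was far larger than that between the groups. The other 9 tested genes of the arm, Mvk, Pmvk, Mvd, Fdps, Fdft1, Sqle, Nsdhl, Hsd17b7 and Dhcr7, had log2 fold changes between -0.04 for Sqle and 0.45 for Pmvk. They include the early mevalonate kinases as well as late reductases. Sqle, the squalene epoxidase, was at 1638 and 1284 against 1278 and 1551, and Fdps at 1598 and 2520 against 1590 and 2572. For Fdps the replicates of number 1 matched each other across the groups, as did those of number 2.

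Of the 5 control genes, 3 had a log2 fold change above 0 and 2 below, none called, with a median of 0.25 that ran from 0.070 to 0.41 with single libraries left out. Srebf2, the factor that mainly drives sterol genes (chr15:81977696-82035806), had normalized counts of 1400 and 767 in serum/-LIF and of 1041 and 860 with Royalactin. Both Royalactin values lay between the serum/-LIF values, and the log2 fold change was -0.13 ± 0.34 (SE; adjusted p = 0.940, limma). Srebf1, the factor that mainly drives fatty acid genes (chr11:60012591-60036083), was at 630 and 262 against 459 and 557, again inside the serum/-LIF range, with a log2 fold change of 0.31 ± 0.42.

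Scap, the SREBP escort (chr9:110235792-110287450), stood at 312 and 165 in serum/-LIF and at 361 and 301 with Royalactin. The ranges overlapped, and serum/-LIF replicate 2 was the low value. Its log2 fold change was 0.54 ± 0.42 (adjusted p = 0.751, limma). Insig1, itself a target of the SREBPs (chr5:28397952-28405201), was at 1288 and 1105 against 1220 and 1651, with a log2 fold change of 0.25 ± 0.30. Insig2 (chr1:123200930-123229166) was at 155 and 232 against 199 and 142, with a log2 fold change of -0.17 ± 0.46. For both Insig genes the values of the groups were interleaved.

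Stard4, a carrier of cholesterol between membranes, had counts of 385 and 165 in serum/-LIF and of 458 and 348 with Royalactin. Serum/-LIF replicate 2 was again far below the other 3 libraries, which lay close together. The log2 fold change was 0.66 ± 0.44 (adjusted p = 0.700, limma).

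The fatty acid arm held the members with the lowest p-values. Of its 11 genes, all tested, 9 had a log2 fold change above 0 and 2 below, with a median of 0.26 and a range of -0.43 to 0.74. Scd2 (chr19:44368166-44381354) is a stearoyl-CoA desaturase, which puts the first double bond into saturated chains. It had normalized counts of 3643 and 2357 in serum/-LIF and of 5156 and 4650 with Royalactin. Both Royalactin values lay above both serum/-LIF values. The means were 3000 ± 909 and 4903 ± 357 (SD, n = 2), and the fold was 1.67 with a 95% interval of 1.05 to 2.66 (limma, unadjusted p = 0.0326, adjusted p = 0.468).

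Acly, the ATP citrate lyase that supplies acetyl-CoA to both arms (chr11:100337667-100389314), stood at 3686 and 2630 in serum/-LIF and at 4726 and 5037 with Royalactin. The groups did not overlap. The fold was 1.57 (1.00 to 2.46; limma, unadjusted p = 0.05, adjusted p = 0.535), and the interval ended just above no change. Scd1, the paralog of Scd2 on the other strand of the same region (chr19:44468941-44482199), was at 599 and 543 against 967 and 754. Its serum/-LIF replicates agreed closely, at 1.10-fold, and the log2 fold change was 0.58 ± 0.32 (adjusted p = 0.628, limma).

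Of the elongases, Elovl1, which extends saturated and monounsaturated very long chains (chr4:118100698-118105558), had 131 and 99.4 in serum/-LIF and 71.4 and 99.8 with Royalactin. Elovl5, which extends polyunsaturated chains (chr9:77765171-77832326), had 1081 and 1277 against 877 and 1087. In both genes the groups overlapped. They were the only members of the arm with negative estimates, at log2 fold changes of -0.43 ± 0.55 and -0.27 ± 0.30 (adjusted p = 0.863 and 0.841, limma).

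Acaca, Fasn, Acss2, Elovl6, Fads1 and Fads2 had log2 fold changes between 0.11 and 0.37. Fasn, the multidomain synthase that builds palmitate (chr11:120667254-120685492), was singled out after its values were seen. It had normalized counts of 7996 and 3042 in serum/-LIF and of 6691 and 5459 with Royalactin. The serum/-LIF replicates differed 2.63-fold, the widest gap within that group among the members, and both Royalactin values fell inside it. Elovl6, which extends palmitate, was at 2177 and 2172 against 2737 and 2161. Fads1 and Fads2, the desaturases of polyunsaturated chains, are neighbours on chromosome 19 and stood at 479 and 348 against 429 and 449, and at 437 and 318 against 457 and 397.

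**Figure D3:**
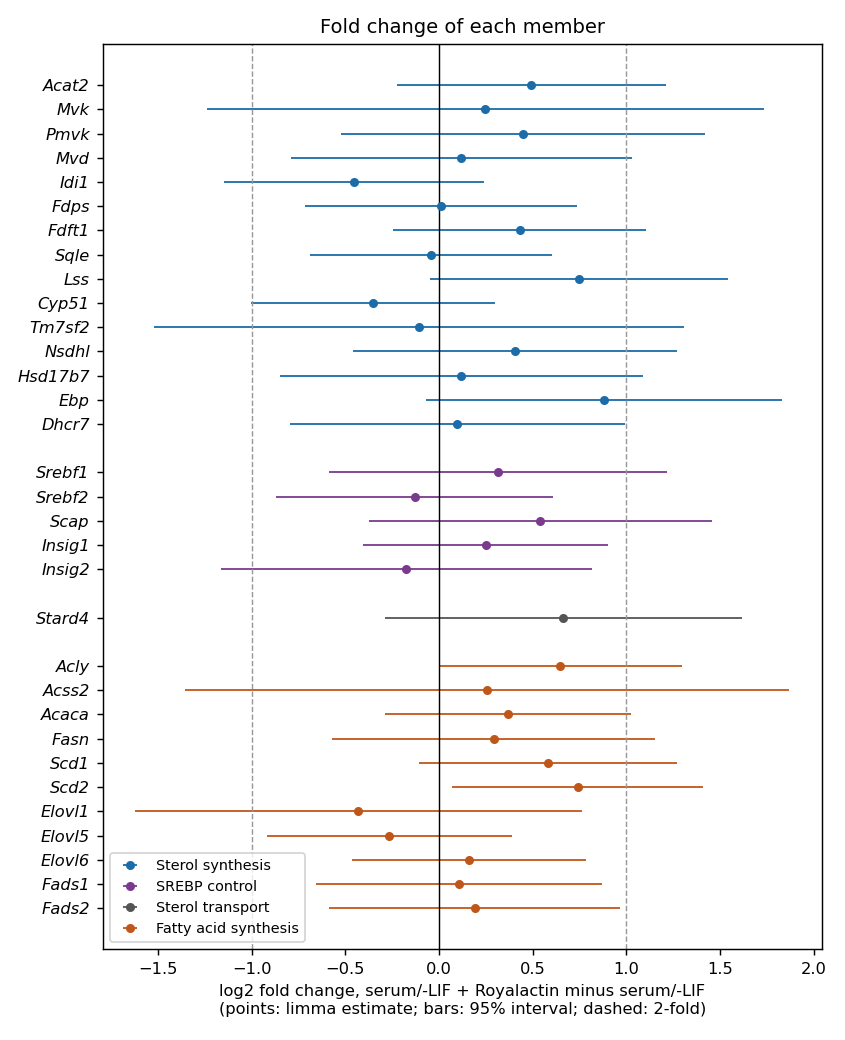
log2 fold change of each measured member, serum/-LIF + Royalactin minus serum/-LIF, with its 95% interval from limma, by group. Dashed lines mark 2-fold. The intervals of Scd2 and Acly lie above 0, Acly only just, and all the others include 0.

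The upward lean of the fatty acid arm depended on 1 library. Serum/-LIF replicate 2 was the lowest of the 4 libraries for 8 of the 11 genes (72.7%), against 32.7% of all tested genes, and the sum of the arm was 14363 there against 22415, 24829 and 22209 in serum/-LIF replicate 1 and the Royalactin replicates 1 and 2. Without it, the median log2 fold change of the arm was -0.0034 and 5 of 11 genes were above 0. Without serum/-LIF replicate 1 the median was 0.52. The estimates for Scd2 and Acly stayed positive with each library left out, between 0.43 and 1.05 and between 0.40 and 0.89. Low values in serum/-LIF replicate 2 were not particular to this arm, since that library was also the lowest for 4 of the 5 control genes (80.0%).

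The sum of the sterol arm was not lowest in serum/-LIF replicate 2. Its summed level was 10561 and 13125 in serum/-LIF and 11050 and 12564 with Royalactin, so each group held a lower and a higher value. Royalactin replicate 2 was the highest library for 7 of the 15 genes (46.7%), against 19.9% of tested genes, and serum/-LIF replicate 2 was the lowest for 6 (40.0%), against 32.7% of tested genes. The mean log2 level of the arm, 8.63, 8.71, 8.70 and 9.05 in serum/-LIF replicates 1 and 2 and Royalactin replicates 1 and 2, was lowest in the library with the largest Rn45s share and highest in the one with the smallest. The part of Rn45s in this was not tested. Without Royalactin replicate 2, 8 of the 15 genes were above 0.

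For each of the 3 sets, the median gap between replicates was at least as large as the median difference between groups. These are unlike measures, since the first compares single libraries and the second compares group means. The median absolute log2 difference between the serum/-LIF replicates was 0.47 for the sterol arm, 0.46 for the fatty acid arm and 0.87 for the control genes, against 0.57 for all tested genes. Between the Royalactin replicates it was 0.36, 0.29 and 0.28, against 0.39. The median absolute log2 fold change between groups was 0.35, 0.29 and 0.25 for the 3 sets, against 0.40 over all tested genes.

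**Figure D4:**
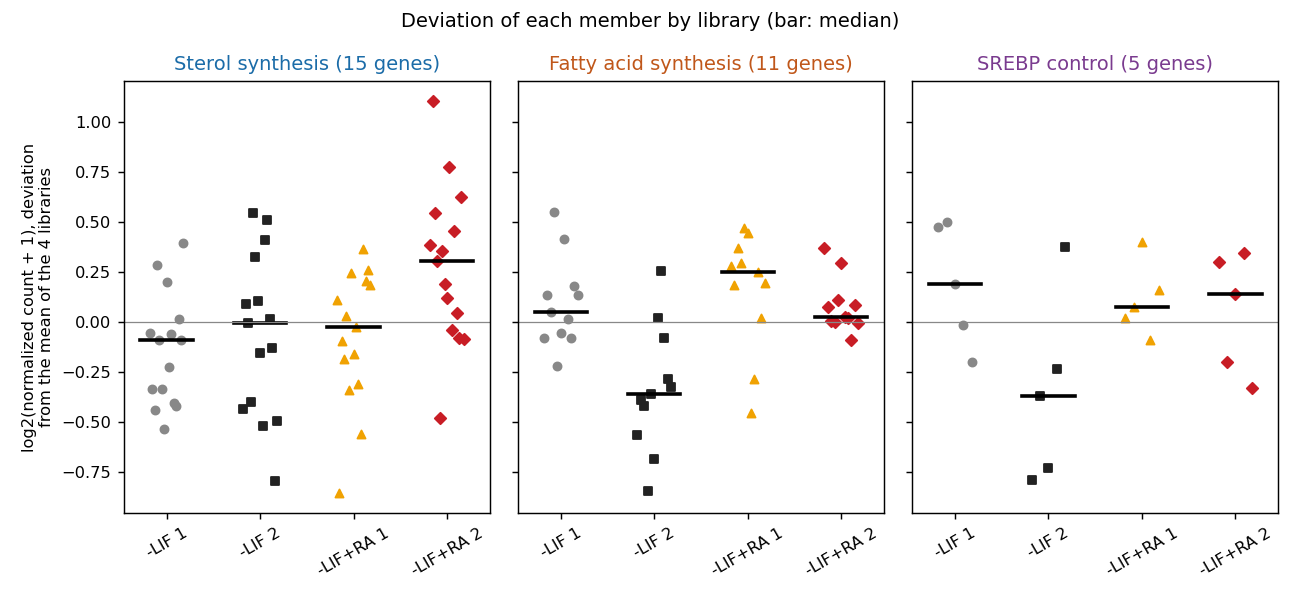
log2(normalized count + 1) of each measured member as a deviation from its mean over the 4 libraries, by library, for the sterol arm (15 genes), the fatty acid arm (11) and the SREBP control genes (5). Bars are medians over genes. The fatty acid arm and the control genes have their lowest medians, -0.36 and -0.37, in serum/-LIF replicate 2 (-LIF 2). The sterol arm has its highest, 0.30, in Royalactin replicate 2 (-LIF+RA 2).

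Among 15 further genes of sterol and isoprenoid metabolism, 5 were above 0 and 10 below, with a median log2 fold change of -0.17 and none past an adjusted p-value of 0.05 or past the limits of p and 2-fold (limma). Both Royalactin libraries lay below both serum/-LIF libraries for 7 of the 15 and above them for 2, where 18.9% and 19.7% of tested genes did.

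Of 22 tested genes from a further list of fatty acid metabolism, 8 were above 0 and 14 below, with a median of -0.19, and again none passed either rule. In this list both Royalactin libraries lay below both serum/-LIF libraries for 7 genes and above them for 4 (18.2%). Of all tested genes, 18.9% lay below and 19.7% above in this way. Of 11 genes that process or degrade SREBPs and their partners, 9 were above 0 and 2 below, with a median of 0.13 and none called. Of all tested genes, 49.4% were above 0. The median estimate thus lay above 0 for the members and below 0 for both lists of further enzymes, and that of the further fatty acid genes turned to 0.15 without Royalactin replicate 1.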

How the data were processed

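The authors aligned single-end 75-base reads of rRNA-depleted RNA to mm9 with TopHat, obtained gene counts with HTSeq-count and scaled these by DESeq size factors. The deposited values are therefore a signal proportional to reads, and all are whole multiples of a single step per library. The limit was 0.01 reads, or wider in proportion for the largest counts, and read numbers were derived from the step. In 1 library the step lies too near 1 for this to be checked automatically, so no count test was run, and limma took the place of the study's own test. For genes with a mean of at least 10, limma 3.58.1 (R 4.3.3) was fitted to log2(normalized count + 1) values (moderated test with variance trend, two-sided, Benjamini-Hochberg adjustment over 12993 genes), after tests on simulated data. The replicate number was not used as a block. The columns of values were assigned to libraries by name. The members and gene lists were chosen with earlier results of these data known. Values of all 4 libraries are given for members with an unadjusted p-value under 0.05, the 3 largest rises and falls of each arm (the fatty acid arm had 2 falls), the control genes and members whose call changed under an alternative. Further genes are named if past p-value 0.05 and 2-fold. Exon tiles were mapped with minimap2 2.31-r1302. Alternatives were other pseudocounts, filters and scalings, the replicate block, no variance trend and each library left out. Corrections for GC content and length (lowess, span 0.3) were added after the data were seen. One gene of a further list is not reported here by name.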

Additional observations from a re-analysis of the deposited data

How the results depend on the processing

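Of the 32 tested members, 17 kept the sign of their log2 fold change under all 15 alternatives and 15 did not. The sign changes came from leaving out single libraries, where the log2 fold changes ran from -0.73 to 1.23 for Mvk, -0.22 to 0.46 for Mvd, -0.34 to 0.36 for Fdps, -0.22 to 0.13 for Sqle, -0.61 to 0.40 for Tm7sf2, -0.022 to 0.26 for Hsd17b7, -0.35 to 0.54 for Dhcr7, -0.32 to 0.95 for Srebf1, -0.56 to 0.30 for Srebf2, -0.46 to 0.11 for Insig2, -0.0034 to 0.52 for Acss2, -0.40 to 0.99 for Fasn, -0.0091 to 0.33 for Elovl6, -0.12 to 0.34 for Fads1 and -0.038 to 0.42 for Fads2, with 1 exception: Sqle was also at 0.012 when scaled to the total without Rn45s. With single libraries left out the number of genes above 0 was 5 to 9 of 11 in the fatty acid arm and 3 to 5 of 5 among the control genes, and the median of the fatty acid arm was -0.0034 to 0.52.

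The members called by p-value and 2-fold numbered 0 to 3 with single libraries left out: Ebp (1.24), Scd2 (1.05) and Stard4 (1.27) without serum/-LIF replicate 1, and Lss (1.15) without Royalactin replicate 1. Over all genes that rule gave 427 to 1925, highest without serum/-LIF replicate 1, against 927. At an adjusted p-value under 0.05, 64 genes were called, 43 higher and 21 lower, against 32 with a pseudocount of 0.1, 34 with all genes above 0, 99 with a mean of at least 50, 254 with the GC and length correction, and 46 with upper-quartile scaling (34 higher, 12 lower) and with the total without Rn45s (35 higher, 11 lower). The number was 0 by limma without the variance trend, where 1135 genes had an unadjusted p-value under 0.05, and 0 with each library left out, where 428 to 2496 did and a lone library was assumed to vary like the others. The cause of these changes was not tested. No other tool was run.

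The replicate numbers did not pair the libraries by the check used: deviations of same-numbered libraries correlated at r = 0.085 across 12993 genes, a single value for 2 pairs. With the replicate block, 391 genes (3.01%) were called at an adjusted p-value under 0.05 and 0 members, and with the block and the GC and length correction 796 genes (6.13% of those tested) and 1 member, Scd2 (log2 fold change 0.65, adjusted p = 0.0139). Over the alternatives the adjusted p-value of Scd2 ran from 0.0139 to 1.00. Of the genes of sterol uptake, efflux and storage, Abcg1 and Soat1 were called with the block (adjusted p = 0.0136 and 0.00509, limma). Soat1 was also called with the GC and length correction alone (adjusted p = 0.0103, limma). With the correction and the block, Abcg1, Soat1 and Vldlr were called (adjusted p = 0.00320, 5.21e-06 and 0.0109, limma). At an unadjusted p-value under 0.05, 2 members passed in the main fit (limma). Among fits to all 4 libraries, that number ran from 0 without the variance trend to 7 with the correction and the block. Of all genes, 1135 and 2255 passed in these 2 fits.

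The medians of further lists moved for other fatty acid genes (-0.45 with a mean of at least 50; -0.41 to 0.15 with single libraries left out), mESC markers (1.06 with the GC and length correction and also with the block; 0.68 to 1.10), fibroblast markers (0.67 with a mean of at least 50) and visceral endoderm markers (-0.18 with a mean of at least 50; -0.81 to 0.66). With 2 libraries a group, the standard errors of the members (0.29 to 0.75 on the log2 scale) limit which changes could be detected.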

Other observations

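Genes that move sterols in and out of cells and store them were described beside the genes that make them. Of 15 tested genes of uptake, efflux and storage, 8 had a log2 fold change above 0 and 7 below, with a median of 0.11, and 3 passed an unadjusted p-value of 0.05 with a 2-fold change, 1 higher and 2 lower with Royalactin, where 7.13% of tested genes did. None passed an adjusted p-value of 0.05 by limma without block or correction.

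Abcg1, a transporter that exports cholesterol to lipoproteins and a classical target of the sterol-sensing LXR receptors (chr17:31194643-31252722), had normalized counts of 93.6 and 44.5 in serum/-LIF and of 227 and 287 with Royalactin. Its log2 fold change was 1.97 ± 0.53 (SE; unadjusted p = 0.00258, adjusted p = 0.175, limma). Abca1, the other main exporter of this kind and named after its values were seen, stood at 25.4 and 44.5 against 81.5 and 77.8, a log2 fold change of 1.22 ± 0.72 that did not pass (unadjusted p = 0.112, limma). In both genes every Royalactin value lay above both serum/-LIF values, as in 6 of the 15 tested genes of this list (40.0%) and 19.7% of all tested genes. For 4 of the 15 both Royalactin values lay below, where 18.9% of tested genes did.

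Soat1, which esterifies cholesterol for storage (chr1:158358239-158404459), was at 1969 and 1921 in serum/-LIF and at 906 and 846 with Royalactin. The replicates of each group were nearly equal, and the log2 fold change was -1.15 ± 0.29 (adjusted p = 0.138, limma). Vldlr, a receptor for triglyceride-rich lipoproteins (chr19:27290974-27328721), was at 225 and 269 against 87.5 and 70.9, with a log2 fold change of -1.63 ± 0.48 (adjusted p = 0.221, limma). For these 3 genes the estimates kept their direction with each library left out, at 1.44 to 2.49 for Abcg1, -1.20 to -1.10 for Soat1 and -1.78 to -1.48 for Vldlr.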
